A study of Mus musculus with 15 samples.

Results

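Mouse macrophages polarized to opposite ends of the M1 and M2 scale were compared directly, gene by gene. The comparison set 3 arrays of M1 cells against 3 arrays of M2 cells that had received no further agent, out of 15 arrays in 5 groups. All cells were macrophages grown from mouse bone marrow over 7 days in M-CSF, a growth factor under which marrow precursors become macrophages. M1 cells had then received lipopolysaccharide (LPS) of E. coli together with interferon-gamma, M2 cells had received interleukin-4 and interleukin-13, and M0 cells were left untreated. The other groups were M2 cells with nutlin-3a, which blocks the binding of p53 by Mdm2, and M2 cells with 10058F4, an inhibitor of MYC; the series was made around p53. Doses, the length of polarization and the strain, sex and age of the mice are not stated in the labels used. The labels call the replicates biological but do not say that each is its own mouse or culture, and p-values therefore cover only the spread between these arrays, part of which may be technical. The arrays measured 18193 genes by probe sets assigned to a single gene, and 13703 of them passed a filter on low values and were tested; where a gene had several probe sets, the brightest over the 15 arrays stood for it. M0 served only to say whether a gene was opposed in the 2 states, shared by both or moved in one state alone.

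LPS acts through Toll-like receptor 4, which activates NF-kappa-B, AP-1 and the interferon regulatory factors, and interferon-gamma acts through its own receptor and the kinases JAK1 and JAK2. Together they arm a macrophage for killing microbes, with nitric oxide, interferon-inducible GTPases and chemokines that draw T cells. Interleukin-4 and interleukin-13 act through receptors that share the chain Il4ra and through the transcription factor STAT6. They switch macrophages towards tissue repair, endocytosis through the mannose receptor, arginase activity and the response to parasites. The terms M1 and M2 name these culture conditions and not fixed cell types.

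Values are log2 array values, and a difference is the M1 mean minus the M2 mean on that scale, with its standard error after the sign ±, so that a positive difference means a higher value in M1. For 46 named genes the mean of the lower state was below the 40th percentile of its arrays; a fold of such a gene is a lower bound ("at least"), set against the higher of that percentile and the gene's own value on each array, while its log2 difference is the measured one. A gene was called when its adjusted p (limma, Benjamini-Hochberg) was under 0.05. Array replicates correlated at 0.9893 to 0.9944 in M1 and at 0.9962 to 0.9969 in M2. M1 replicate 2 stood apart: in it 110 tested genes differed at least 2-fold from both other M1 arrays while those agreed within 0.5, against 2 to 12 genes for each of the other 8 arrays of M0, M1 and M2. Named genes whose difference moved by over 1.5 times without it are given both ways. RNA quality was read from control probe sets at both ends of a transcript. For beta-actin the 3′ end minus the 5′ end was 0.178 ± 0.044 (SD, n = 3) in M1 and 0.382 ± 0.03 in M2, and for Gapdh it was -0.162 ± 0.035 and -0.283 ± 0.032. In both controls the groups did not overlap (exact permutation test, two-sided p = 0.1, the smallest that 3 arrays against 3 allow), and the part of this in the results was not tested.

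The labelled cell type was borne out by the defining markers of macrophages. The M-CSF receptor Csf1r read 12.98, 13.16 and 12.90 in M1 and 13.85, 13.86 and 13.83 in M2, and Adgre1, the F4/80 antigen, read 13.26, 13.37 and 13.27 in M1 and 12.91, 12.89 and 12.87 in M2. All 6 arrays held both genes among their highest values, with Csf1r lower and Adgre1 higher in M1. Of 18 tested macrophage identity genes, 7 were higher in M1 and 8 in M2, and their summed linear level ran from 86590 to 88040 in M1 and from 104800 to 105800 in M2. Summed levels of T and NK cell markers were 1172 to 1445 in M1 and 1893 to 2386 in M2, those of B cell markers 2162 to 2800 and 3181 to 3453, those of neutrophil markers 1340 to 1528 and 1455 to 1582, and those of erythroid and megakaryocyte markers 810.4 to 1288 and 2217 to 3214. Of 7 tested erythroid and megakaryocyte markers 1 was higher in M1 and 2 were higher in M2. Only 1 of these, Pf4, was at least 2-fold higher in M2, and it is also counted among the CXC chemokines below. The part of these summed levels in the results was not tested. Cd3g, Cd2, Nkg7, Ms4a1, Cpa3 and Kit did not pass the filter on low values, but other markers of these lists did. Among markers with a probe set, 7 of 16 T and NK cell and 7 of 10 B cell markers passed it. So did 11 of 13 neutrophil markers and 6 of 11 mast cell and basophil markers. Where levels differ in such cultures, fewer cells of a type and less RNA per cell cannot be told apart.

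The 2 states differed over most of the transcriptome. Of the 13703 genes, 8860 (64.7%) were called: 3855 (28.1%) were higher in M1 and 5005 (36.5%) were higher in M2. A difference of at least 2-fold was called for 887 genes higher in M1 (6.47%) and 1526 higher in M2 (11.1%). At 4-fold the numbers were 371 and 393, and at 16-fold 92 and 49. Arrays of M1 and M2 did not overlap for 8893 genes (64.9%). The median difference of all tested genes was -0.005. The split between directions depends on the scaling: with each array centred on the median of the tested genes, a setting added after the data were seen, the median of all genes moved to 0.237 and the calls split 6896 higher in M1 to 3644 higher in M2 (65.4% higher in M1, against 43.5% as deposited). At 2-fold that setting gave 1154 and 1047. Quantile normalization repeated over all probe sets gave 4630 and 4473 (50.9% higher in M1). Of the 2-fold genes higher in M1, 78 had an M2 mean below the 40th percentile of their arrays, and of those higher in M2, 161 had an M1 mean below it. The 71 genes that passed the filter through M1 arrays alone were all higher in M1, as the filter itself forces. A further 55 genes passed it through M2 arrays alone, with or without an agent, and 21 of these were called higher in M2. The filter favours that direction in the same way.

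The genes that most separated M1 from M2 were chemokines of the interferon response, inflammatory mediators and interferon-inducible GTPases. Cxcl9, a ligand of the T cell receptor Cxcr3, read 13.39, 13.31 and 13.40 in M1, 4.68, 3.96 and 4.60 in M2 and 4.82, 4.56 and 4.83 in M0. The M1 arrays lay far above every M2 and M0 array, with a difference of 8.95 ± 0.20 (at least 446-fold, adjusted p = 8.1e-14). Cxcl10, a second ligand of that receptor, read 13.68, 13.57 and 13.66 in M1, 5.77, 5.88 and 6.54 in M2 and 7.43, 6.88 and 7.21 in M0. Here M2 lay below M0 and M1 above it, and the states differed by 7.57 ± 0.21 (190-fold, adjusted p = 8e-13). The third ligand, Cxcl11, was 7.88 ± 0.35 higher in M1 (235-fold), with its lowest M1 value, 11.84, in replicate 2. The cytokine Il6 read 10.75, 10.11 and 10.61 in M1 and 2.76, 3.01 and 2.86 in M2, the latter overlapping M0 at 2.92, 2.85 and 2.93 and below the 40th percentile of the arrays. Its measured difference was 7.62 ± 0.14 (at least 67.0-fold, adjusted p = 1.3e-14).

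Other genes among the 20 that rose most were of several kinds, antiviral genes and GTPases among them. Ptgs2, the inducible cyclooxygenase of prostaglandin synthesis, was 209-fold higher in M1 (7.71 ± 0.17). Slfn4, of the Schlafen family, was 259-fold higher (8.02 ± 0.32). The antiviral genes Mx1 (7.30 ± 0.20), Oasl1 (7.13 ± 0.16), Cmpk2 (6.42 ± 0.15) and Ifit1bl1 (7.56 ± 0.19) rose together, as did Iigp1, Gbp2b and Gbp6, GTPases that attack the vacuoles of intracellular pathogens, at 7.15 ± 0.36, 7.01 ± 0.12 and 6.76 ± 0.19. Socs3, an inhibitor of cytokine receptor signalling, was 6.73 ± 0.11 higher. Cd69, an early activation antigen (7.48 ± 0.17), the formyl peptide receptor Fpr2 (6.66 ± 0.21), the iron-scavenging protein Lcn2 (6.47 ± 0.19), the uridine phosphorylase Upp1 (6.44 ± 0.22), the scavenger receptor Marco (6.33 ± 0.17) and Clic5, of the intracellular chloride channel family (7.53 ± 0.09), complete the group. For Clic5 all 4 probe sets were called in the same direction.

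**Figure D1:**
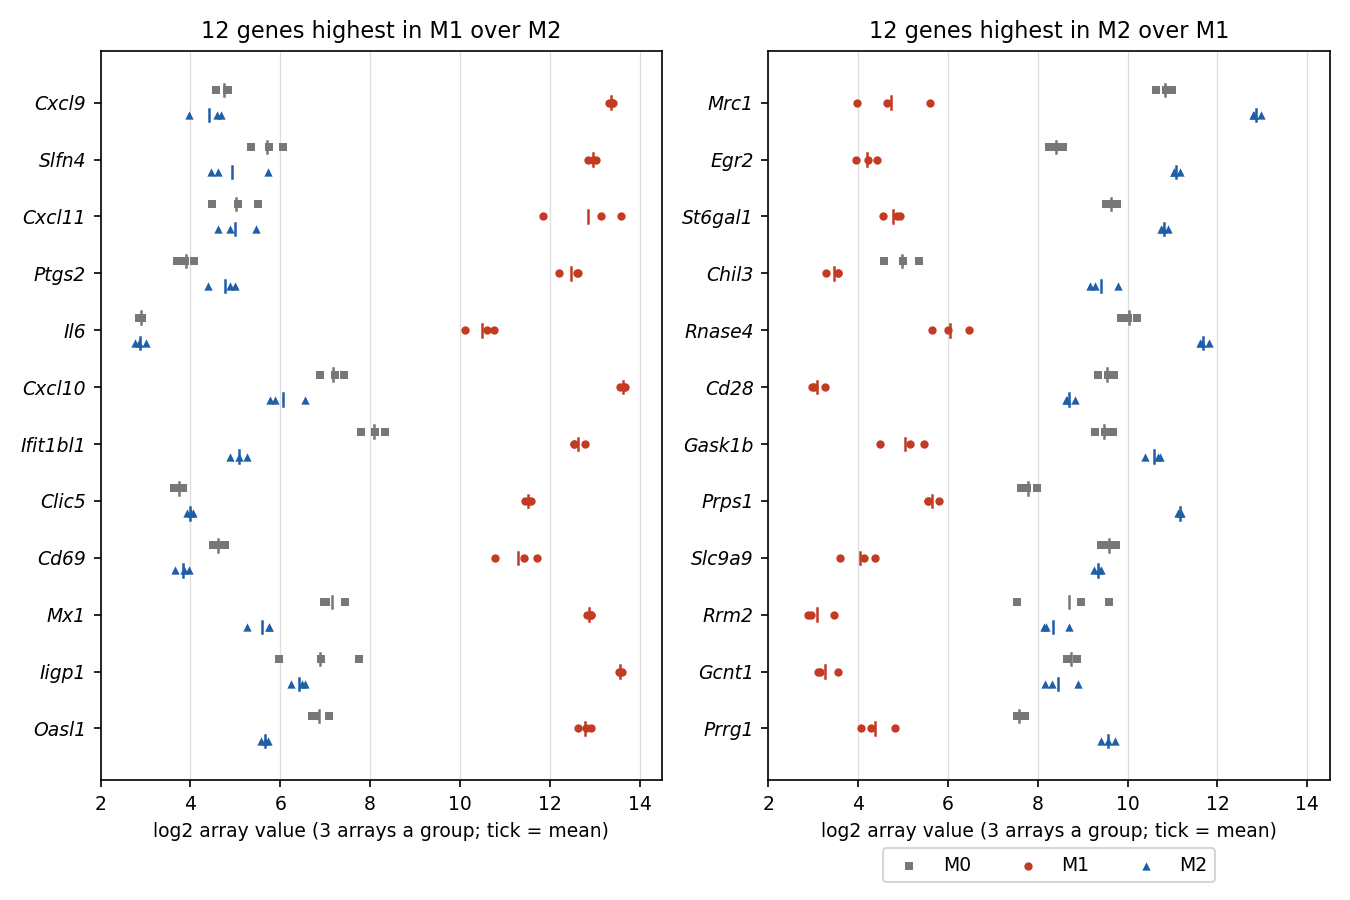
Log2 array values (x axis) of the 12 genes with the largest rise (left) and the 12 with the largest fall (right) in M1 relative to M2, with 3 arrays per group as points (M0 squares, M1 circles, M2 triangles) and a tick at each group mean. In the left panel all M1 arrays lie above all M2 arrays, as for Cxcl9 at 13.31 to 13.40 against 3.96 to 4.68, while on the right every M1 array is lower than every M2 array, as for Mrc1 at 3.98 to 5.60 against 12.80 to 12.96.

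At the M2 end stood the mannose receptor, a transcription factor of the interleukin-4 response and enzymes of glycan and nucleotide synthesis. Mrc1, the mannose receptor CD206 that takes up glycoproteins, read 3.98, 5.60 and 4.63 in M1, 12.81, 12.96 and 12.80 in M2 and 10.64, 10.98 and 10.86 in M0. M0 cells already had a high value, which M2 exceeded and M1 fell far below, and the difference was -8.12 ± 0.27 (278-fold higher in M2, adjusted p = 3.2e-12). Egr2, a zinc finger transcription factor, read 4.21, 3.95 and 4.41 in M1, 11.16, 11.04 and 11.04 in M2 and 8.39, 8.25 and 8.55 in M0. No array of one group reached those of another, with -6.89 ± 0.10 between the states (at least 96.0-fold, adjusted p = 5.2e-15). Chil3, the secreted chitinase-like lectin Ym1, read 3.28, 3.54 and 3.55 in M1 and 9.17, 9.28 and 9.79 in M2 (-5.96 ± 0.19, at least 30.2-fold). Retnla, the resistin-like protein Fizz1, was 27.2-fold higher in M2 (-4.77 ± 0.18).

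The remaining genes of the 20 with the largest fall were of mixed function. St6gal1, a sialyltransferase, fell by 6.02 between the M2 and M1 means, the ribonuclease Rnase4 by 5.65, and the kinase-like Golgi protein Gask1b by 5.56. Prps1, which makes the ribose precursor of nucleotides, was 46.0-fold higher in M2 (-5.52 ± 0.09), and Rrm2, the small subunit of ribonucleotide reductase, at least 14.4-fold (-5.25 ± 0.40). Cd28, best known as a costimulatory receptor of T cells, read 3.25, 2.97 and 3.01 in M1, 8.63, 8.82 and 8.64 in M2 and 9.56, 9.70 and 9.34 in M0, lower than M0 in both states and far lower in M1, with -5.62 ± 0.12 between them. The endosomal proton exchanger Slc9a9 (-5.31 ± 0.16), the glycan-branching enzyme Gcnt1 (-5.19 ± 0.17) and the ubiquitin ligase Rnf180 (-5.02 ± 0.12) were called lower than M0 in M1 and were not called in M2 against M0. For Rnf144b (-4.79 ± 0.14) the probe sets were called in both directions, 2 higher in M2 and 1 higher in M1, and its direction is uncertain. Prrg1, Tmem26, Bex1, Socs2, Ank and Pald1 had differences between -5.18 and -4.67.

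Because groups of genes moved together, the sequence before the start site of genes from both ends is shown, with short motifs known for the factors named above in capitals. The sequences are from RefSeq (GRCm38.p6), 5′ to 3′ on the gene's strand and ending at the base before the start site, so that the last base is position -1. The genes were picked after their matches were seen. The motifs are TTC and GAA with 4 bases of any kind between them (the spacing preferred by STAT6), GAAA and GAAA with 2 bases between them (the interferon-stimulated response element), GGGANNNCC, GGGANNTCC or GGGA and CC with 4 bases between them (the NF-kappa-B type, of which the second is a case of the first), TGACGTCA and TGANTCA (CRE and AP-1), each read on both strands.
Cxcl9, chr5:92328080-92328229, minus strand: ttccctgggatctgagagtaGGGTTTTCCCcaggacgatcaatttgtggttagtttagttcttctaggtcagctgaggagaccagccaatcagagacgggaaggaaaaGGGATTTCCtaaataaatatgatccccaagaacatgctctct
Cxcl10, chr5:92348890-92349139, minus strand: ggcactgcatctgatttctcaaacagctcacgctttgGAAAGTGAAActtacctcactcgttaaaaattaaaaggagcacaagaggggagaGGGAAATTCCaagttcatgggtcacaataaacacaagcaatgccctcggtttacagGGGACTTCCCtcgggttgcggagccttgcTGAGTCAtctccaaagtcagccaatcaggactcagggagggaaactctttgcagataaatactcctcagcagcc
Ifit1, chr19:34640739-34640888, plus strand: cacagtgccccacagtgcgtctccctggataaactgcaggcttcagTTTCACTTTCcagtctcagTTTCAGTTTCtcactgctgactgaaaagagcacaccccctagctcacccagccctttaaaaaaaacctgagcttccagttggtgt
Ifit3, chr19:34583329-34583528, plus strand: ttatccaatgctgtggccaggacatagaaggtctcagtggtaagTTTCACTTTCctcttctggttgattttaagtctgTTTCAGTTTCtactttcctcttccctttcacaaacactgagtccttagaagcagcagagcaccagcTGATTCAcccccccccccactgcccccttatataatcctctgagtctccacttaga
Retnla, chr16:48842409-48842608, plus strand: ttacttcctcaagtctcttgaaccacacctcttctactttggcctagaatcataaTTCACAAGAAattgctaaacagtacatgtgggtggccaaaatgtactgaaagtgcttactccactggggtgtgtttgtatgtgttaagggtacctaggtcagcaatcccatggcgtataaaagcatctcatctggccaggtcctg
Tmem26, chr10:68723496-68723745, plus strand: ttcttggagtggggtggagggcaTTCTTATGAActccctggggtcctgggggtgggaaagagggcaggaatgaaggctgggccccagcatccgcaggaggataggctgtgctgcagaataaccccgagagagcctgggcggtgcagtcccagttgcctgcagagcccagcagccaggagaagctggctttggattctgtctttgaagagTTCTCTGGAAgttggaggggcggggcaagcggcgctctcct
Mrc1, chr2:14229264-14229413, plus strand: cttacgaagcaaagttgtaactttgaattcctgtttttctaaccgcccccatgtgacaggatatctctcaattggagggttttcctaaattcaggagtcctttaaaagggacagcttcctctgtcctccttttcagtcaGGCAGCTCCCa

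Among the genes that rose most in M1, the NF-kappa-B type letters were found in 12 of 18 promoters of 15 matched genes (66.7%), counting the 250 bases before each start. They were found in 9 of 30 promoters of 18 matched genes that fell most (30.0%) in 33.5% of the 14036 promoters of tested genes and in 26.9% of all 32851 promoters in the table. The interferon-stimulated response element was found in 4 of the 18 (22.2%), in 0 of the 30 and in 2.98% of all promoters, and TGANTCA in 5 of 18 (27.8%), 4 of 30 (13.3%) and 6.75%. The STAT6 type was in 1 of 18 (5.56%), 3 of 30 (10%) and 5.85%, and TGACGTCA in 0 of 18, 0 of 30 and 1.55%. Over wider sets added after the data were seen, the interferon-stimulated response element was in 7.02% of the promoters of genes called at least 2-fold higher in M1, 2.44% of those at least 2-fold higher in M2, 7 of 9 promoters of interferon-induced GTPases (77.8%) and 9 of 32 of type I interferon-stimulated genes (28.1%). The STAT6 type was in 8 of 43 promoters of the interleukin-4 and interleukin-13 marker list (18.6%), in 5 of 32 of the LPS and interferon-gamma marker list (15.6%), in 5 of 32 of the type I interferon-stimulated genes (15.6%) and in 4.7% of the promoters of tested genes. NF-kappa-B type letters were in 35.0% and 34.9% of the promoters of genes at least 2-fold higher in M1 and in M2, against 33.5% of those of tested genes. Promoters of the same gene can overlap, so a site can be counted more than once. The TGAGTCA of Upp1, for example, lies at -45 to -39 in one promoter and at -140 to -134 in an overlapping one. These counts describe letters in a window and were not tested.

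Against M0, 9963 genes were called in M1 (72.7%) and 4253 in M2 (31.0%). Of the 13703 genes, 1136 (8.29%) were opposed, called in both states and in opposite directions. The comparisons of M1 and of M2 with M0 share the M0 arrays, which by itself ties their values, so only each gene's own values are given. Of the opposed genes, 544 (3.97%) were higher in M1 and lower in M2 than M0, and 592 (4.32%) were lower in M1 and higher in M2. When calls against M0 also needed a 2-fold difference, 54 and 56 remained opposed in the 2 directions. The 10 genes with the largest smaller step among those higher in M1 were led by antiviral effectors. Ifit3, which binds foreign RNA together with its relatives, read 13.12, 13.05 and 13.23 in M1, 10.60, 9.83 and 9.94 in M0 and 7.78, 7.55 and 8.08 in M2. The M0 arrays sat between the 2 states with no overlap, 3.01 below M1 and 2.32 above M2 in the means. Ifit1 read 13.20, 13.24 and 13.28 in M1, 9.16, 8.49 and 8.61 in M0 and 6.77, 6.69 and 7.29 in M2, a difference of 6.32 ± 0.18 between the states. The group also held Ifit1bl1, Ifit2, Cmpk2, the helicase Ddx60, the channel protein Calhm6, Fpr2, St3gal5, a sialyltransferase of gangliosides, and Nfkbiz, a nuclear co-activator of NF-kappa-B. Nfkbiz rose by 2.53 in M1 and fell by 2.03 in M2.

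In the other direction, the 10 genes were Egr2, Prps1, Pald1, Mrc1, Lyzl4, Prrg1, Pdgfa, Dab2, Tfec and Rnase4. Prps1 read 5.55, 5.55 and 5.80 in M1, 7.62, 7.98 and 7.75 in M0 and 11.18, 11.16 and 11.13 in M2. Its M2 arrays agreed within 0.05, and its step up from M0 was larger than its step down (3.37 and -2.15). Tfec, a transcription factor of the MITF family found in macrophages, read 6.31, 6.97 and 6.35 in M1, 8.88, 8.85 and 8.80 in M0 and 10.60, 10.55 and 10.48 in M2, a difference of -4.0 ± 0.13. The growth factor Pdgfa (-3.66 ± 0.14) and the endocytic adaptor Dab2 (-3.80 ± 0.22) behaved alike.

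**Figure D2:**
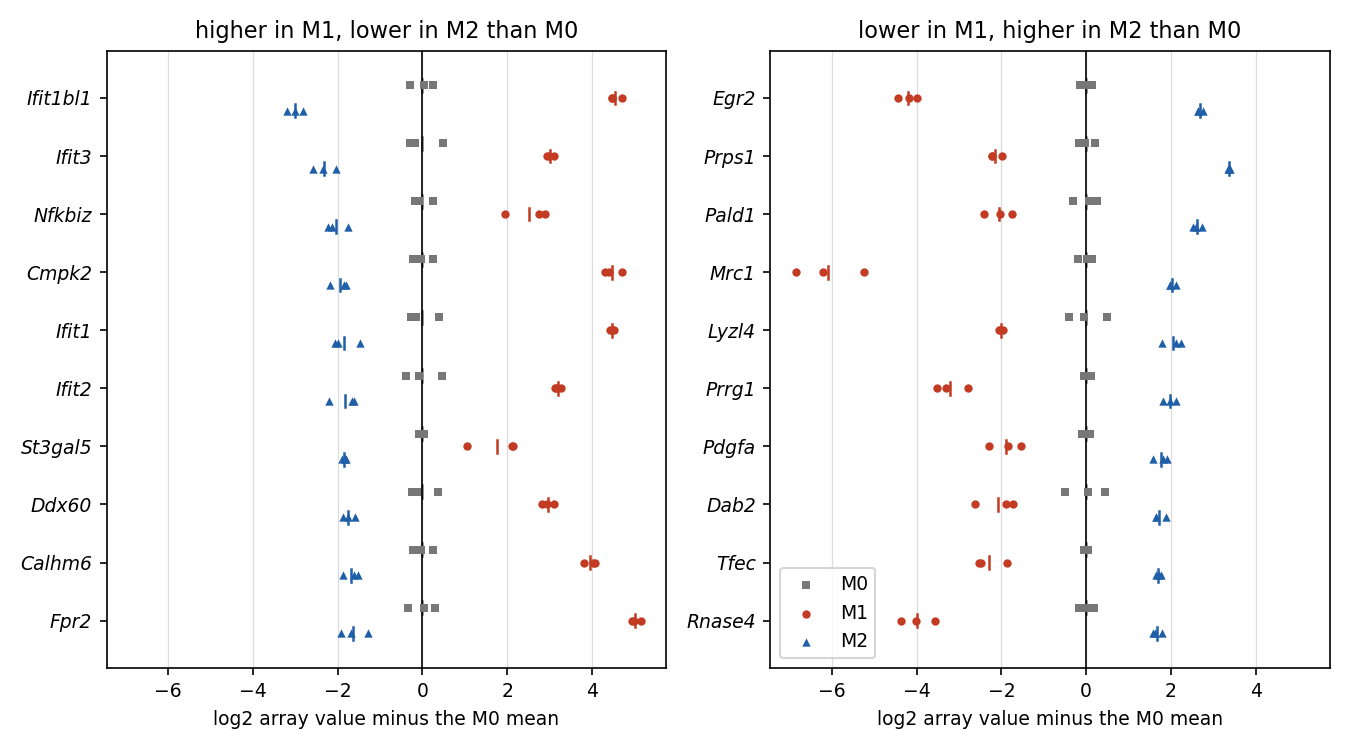
Log2 array values minus the M0 mean (x axis) for the 10 genes of each direction with the largest smaller step from M0, with 3 arrays per group as points (M0 squares, M1 circles, M2 triangles) and a tick at each group mean. On the left M1 lies above 0 and M2 below it, as for Ifit1bl1 at 4.55 and -3.01, and on the right the reverse, as for Egr2 at -4.20 and 2.69; these genes were chosen for this pattern.

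Most calls between the states lay in genes called in M1 alone against M0. Among genes at least 2-fold apart, these were 414 of the 887 higher in M1 and 754 of the 1526 higher in M2. Opposed genes made up 372 and 383 of them. There were 2326 genes higher (17.0%) and 2825 lower (20.6%) in M1 alone, against 272 higher (1.98%) and 303 lower (2.21%) in M2 alone. With a 2-fold rule against M0 these became 687 and 1576 in M1 and 101 and 71 in M2. Genes called higher in M2 alone were led by Tmem26, which read 10.79, 10.77 and 10.89 in M2, 5.93, 5.18 and 5.94 in M1 and 5.44, 5.94 and 5.87 in M0. Irf4, the interferon regulatory factor that drives interleukin-4 responses, read 7.44, 7.18 and 7.37 in M2, 4.16, 4.26 and 4.05 in M1 and 3.84, 4.12 and 3.91 in M0. M1 and M0 overlapped for both genes, M2 stood alone, and Irf4 differed by -3.17 ± 0.09 (at least 7.14-fold). All M1 and M0 values of Irf4 lay below the 40th percentile of their arrays. It therefore passed the filter through M2 arrays alone, with or without an agent, and its call is not independent of the filter. The thrombin receptor F2r (-3.86 ± 0.21), E-cadherin Cdh1 (-3.70 ± 0.20), the eosinophil-associated ribonuclease Rnase2a (-3.15 ± 0.17), the sodium channel Scn3a (-3.12 ± 0.18), Pmepa1 (-2.65 ± 0.12) and the kinase Fyn (-2.31 ± 0.11) followed. For all of these but Tmem26 and Fyn the M1 mean was below the 40th percentile of its arrays.

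Genes lower in M2 alone included a chain of the interleukin-13 receptor. Il13ra1 read 5.47, 5.45 and 5.60 in M2, 6.79, 7.25 and 7.39 in M1 and 7.31, 6.86 and 6.88 in M0. M1 and M0 overlapped and M2 lay below both, with 1.64 ± 0.20 between the states (3.12-fold, adjusted p = 3.7e-06, all 5 probe sets in that direction). Rhobtb1 (2.16 ± 0.18), the proapoptotic p53 target Pmaip1 (1.49 ± 0.09), Xylt2 (1.66 ± 0.13), the Akt phosphatase Phlpp1 (1.74 ± 0.12), the scramblase Plscr1 (1.34 ± 0.10) and Acss2, which makes acetyl-CoA from acetate (1.27 ± 0.15), had the same pattern. Slc22a4 (0.90 ± 0.29) read 6.0, 7.64 and 6.24 in M1, and its difference was 0.39 ± 0.12 without replicate 2, the highest of these; it lost its call without M2 replicate 1 (adjusted p = 0.061, limma).

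Some genes were called against M0 in the same direction under both treatments with no call between the states. There were 402 such genes higher in both (2.93%) and 461 lower in both (3.36%), of which 8 and 25 remained when calls against M0 needed a 2-fold difference. Rasgrp1, an activator of Ras, read 8.69, 9.04 and 8.96 in M1 and 9.17, 9.0 and 9.01 in M2, against 4.20, 3.49 and 4.35 in M0. M1 and M2 overlapped, and the 95% interval of their difference ran from -0.53 to 0.20 around a rise of 4.88 and 5.05 over M0. Sdc4, the proteoglycan syndecan-4, and the coagulation factor F10 rose in both by 1.47 and 1.69 and by 1.63 and 1.45, with intervals of -0.47 to 0.01 for Sdc4. Clic4, which read 12.67 to 12.76 in M1 and 12.67 to 12.70 in M2, had the interval -0.10 to 0.16. Tppp3, Gnb4, Tes and Plekhg1 were the others named.

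Among the genes lower in both, Slc40a1, the iron exporter ferroportin, read 8.19, 9.82 and 8.31 in M1, 8.48, 8.31 and 8.63 in M2 and 12.12, 11.91 and 12.16 in M0. M1 replicate 2 was the highest of the 6 polarized arrays, and the interval of the difference, -0.35 to 0.95, rests on it: without it the difference was -0.22 ± 0.12. Abca1, the cholesterol exporter, fell by 1.64 in M1 and by 1.67 in M2, with an interval of -0.32 to 0.38. Hpgds, a prostaglandin D synthase, had -0.48 to 0.03. Zfand4, Rps6ka5, Nxpe4, the peptide receptor Calcrl and the integrin Itga4 had differences between -0.18 and 0.09. A further 408 genes higher in both and 1140 lower in both differed between the states (2.98% and 8.32%), and the direction of the larger step was M1 in most of those at least 2-fold apart, 72 of 85 among genes higher in both and 339 of 342 among genes lower in both.

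Lists of genes by function, chosen with earlier results of these data known, are described by their counts and medians beside the 28.1% higher in M1, the 36.5% higher in M2 and the median of -0.005 over all genes tested. The genes named are the largest called differences of each list; members outside these, among them those that went against the majority of their list, were picked after their values were seen. Among the lists, LPS and interferon-gamma markers and the interferon genes were almost wholly higher in M1. All 11 interferon-induced GTPases were higher in M1 (median 4.60), and 33 of 34 type I interferon-stimulated genes (median 2.99), with Ifi203 alone not called at 0.18. Of those 34, 25 were opposed, against 8.29% of all genes. Isg20, an exonuclease of RNA, was 6.20 ± 0.13 higher, and Gbp8 and Gbp3 5.57 ± 0.22 and 5.13 ± 0.14. Of 17 MHC class I genes, 15 were higher in M1 (median 1.54) and Pdia3 and Calr were not called. Nlrc5, the transactivator of class I genes, read 11.05, 10.99 and 11.17 in M1 and 7.04, 6.65 and 6.93 in M2, a difference of 4.20 ± 0.15 with no overlap. The peptide transporters Tap1 and Tap2 were 3.50 ± 0.11 and 3.01 ± 0.09 higher.

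MHC class II genes, known in macrophages to respond to both cytokine types, showed no such shift. Of 13, 4 were higher in M1 and 4 in M2, with a median of -0.17 that turned to 0.07 with arrays centred on the median of the tested genes. H2-Oa, an inhibitory subunit of peptide loading, was 2.72 ± 0.18 higher in M1, Marchf1 1.10 ± 0.15 and Rfx5 0.93 ± 0.08. H2-Ab1 was 0.49 ± 0.19 higher, with an adjusted p of 0.038 that rose to 0.15 without M1 replicate 3 and to 0.18 without M2 replicate 2. Ifi30, the lysosomal thiol reductase, was the largest of those higher in M2 at -0.43 ± 0.06.

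**Figure D3:**
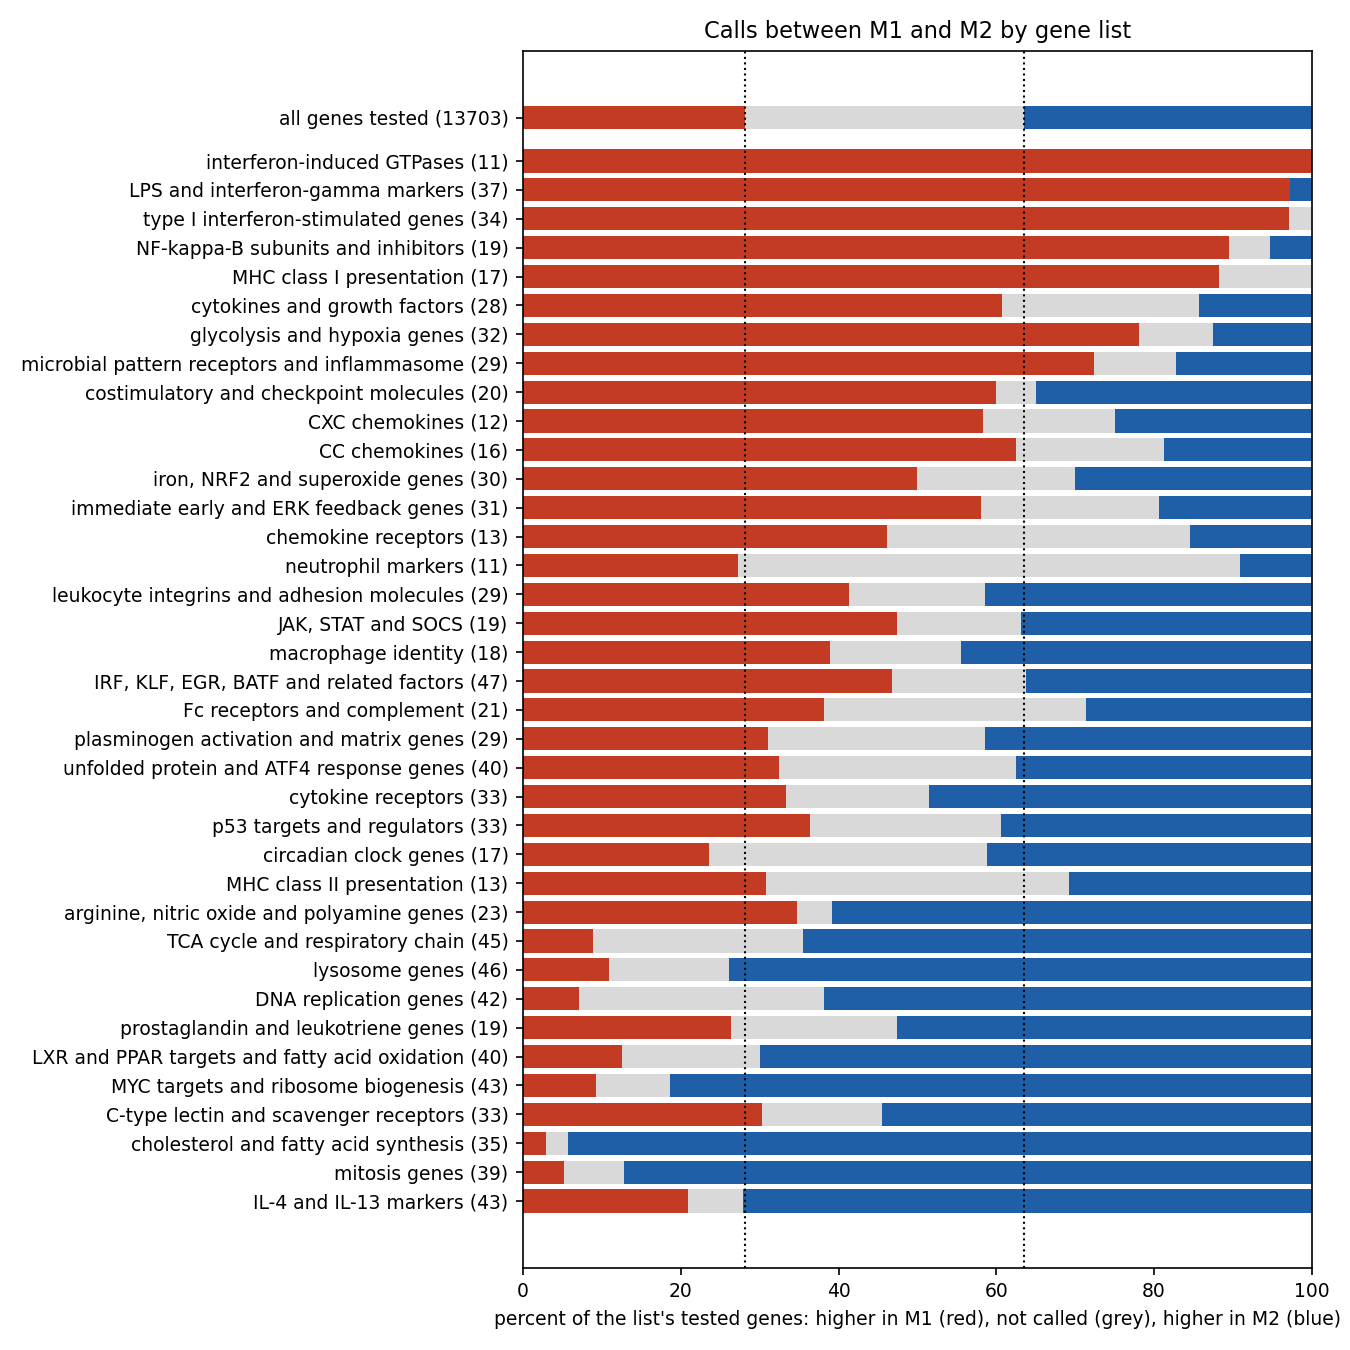
Percent of the tested genes of each list with 11 or more tested genes (x axis) called higher in M1 (red), not called (grey) and called higher in M2 (blue), with the number tested after each name, sorted by the list's median difference, and all 13703 tested genes on top with dotted lines at their 28.1% higher in M1 and 36.5% higher in M2. Interferon-induced GTPases (11 of 11 higher in M1) and cholesterol and fatty acid synthesis genes (33 of 35 higher in M2) are among the most one-sided, and lists such as JAK, STAT and SOCS genes hold members of both directions.

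Of 19 genes of the NF-kappa-B system, 17 were higher in M1 (median 1.73), Ikbkb was lower at -0.31 and Rel was not called. They included inhibitors as well as activators: the inhibitor Nfkbie (3.01 ± 0.11), the adaptor Traf1 (3.74 ± 0.11), the kinase Ikbke (2.44 ± 0.12), the target Icam1 (2.68 ± 0.07) and Nfkbiz (4.56 ± 0.21). Microbial pattern receptors and inflammasome genes split 21 to 5 of 29 (median 1.19), with Casp4, the sensor of cytosolic LPS, 3.30 ± 0.10 higher and Nod1, Il18bp, Mefv and the feedback inhibitor Irak3 between 2.65 and 3.00. The 5 higher in M2 were Tlr8 at -1.58, Pycard, Irak1, Tlr2 at -0.56 and Tlr4 at -0.51. Tlr2 was also the sole one of 37 LPS and interferon-gamma markers that was not higher in M1 (36 higher, median 3.42).

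Cytokines were higher in M1 for 17 of 28 genes (median 1.44), though their median was 0.55 with no filter on low values. Il12b, the subunit shared by interleukins 12 and 23, read 9.86, 10.07 and 10.14 in M1 and 4.94, 4.69 and 4.56 in M2, a difference of 5.29 ± 0.10 (39.2-fold). Il1b, the fever-inducing cytokine, read 11.36, 10.98 and 10.73 in M1 and 5.69, 5.72 and 5.82 in M2. No M1 array came near the M2 arrays for either gene, and neither was called in M2 against M0. The antagonist of Il1b, Il1rn, was also higher in M1, by 4.99 ± 0.16, as was the death ligand Tnfsf10, by 4.83 ± 0.17. The 4 higher in M2 were Pdgfa, Igf1, Tgfb1 and Hgf at -3.66, -3.56, -1.03 and -0.82, all growth or tissue factors.

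Chemokines other than the Cxcr3 ligands went both ways. Of 16 CC chemokines, 10 were higher in M1 and 3 in M2. Ccl2, which recruits monocytes, read 12.66, 12.40 and 12.66 in M1, 7.07, 7.91 and 7.59 in M2 and 6.15, 7.02 and 6.89 in M0 (5.04 ± 0.25). It was called higher than M0 in both states, as were Ccl12, Ccl7 and Ccl8 (5.81 ± 0.27, 3.80 ± 0.31 and 3.82 ± 0.10 between the states). Ccl5 was 5.00 ± 0.34 higher, and Ccl6, Ccl9 and Ccl24 were the 3 higher in M2 (-2.48, -1.52 and -1.13). Of the 9 CXC chemokines other than the Cxcr3 ligands 4 were higher in M1, with Cxcl2 at 2.48 ± 0.11, and 3 in M2, led by the platelet factor Pf4 at -1.83 ± 0.28. Of 13 chemokine receptors 6 were higher in M1 and 2 in M2 (61.5% called, against 64.7% of all genes). Ccrl2 was 4.10 ± 0.10 and Ccr7 1.37 ± 0.19 higher in M1. Cxcr4, the receptor that holds cells in bone marrow, read 5.38, 7.41 and 5.27 in M1 and 9.94, 10.08 and 10.06 in M2, with M1 replicate 2 above its fellows, and Cxcr3 was lower in M1 by 1.67 ± 0.14. Without that replicate the difference in Cxcr4 moved from -4.0 ± 0.38 to -4.70 ± 0.07.

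Surface receptors for particles and antibodies divided between the states. Of 33 C-type lectin and scavenger receptors, 18 were higher in M2 and 10 in M1 (median -0.95). Clec4e, the Mincle receptor for mycobacterial glycolipid, was 5.33 ± 0.11 higher in M1 and lower in M2 than M0, and Mertk, a receptor for apoptotic cells, read 11.01, 10.71 and 11.15 in M1, 8.86, 8.71 and 8.78 in M2 and 10.28, 10.19 and 10.16 in M0 (2.17 ± 0.09). Its bridging ligand Gas6 went the other way (-3.41 ± 0.12). Timd4, another receptor for apoptotic cells, read 9.47, 6.97 and 9.07 in M1 and was 4.46 ± 0.47 higher than in M2, or 5.22 ± 0.26 without M1 replicate 2. Of 21 Fc receptor and complement genes 8 were higher in M1, 6 were higher in M2 and 7 were not called (median -0.06). The 66.7% called were near the 64.7% of all genes. Among Fc receptors the activating Fcgr1 and Fcgr4 were 3.07 ± 0.14 and 3.04 ± 0.16 higher in M1. The inhibitory receptor Fcgr2b read 7.69, 11.61 and 7.06 in M1, 13.23, 13.40 and 13.18 in M2 and 11.55, 11.19 and 11.08 in M0. Its difference of -4.48 ± 0.77 became -5.89 ± 0.16 without M1 replicate 2, the one M1 array above all M0 arrays, and -3.62 ± 0.72 without M1 replicate 3. Complement factor Cfb was 6.18 ± 0.16 higher in M1, and the microglial receptor Fcrls 4.16 ± 0.20 lower.

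Costimulatory and checkpoint molecules split 12 to 7 of 20, and cytokine receptors 11 to 16 of 33 with a median of -0.14 that turned to 0.10 with arrays centred on the median of the tested genes. Tnfsf9, Slamf7, Cd200 and Slamf1 were between 3.03 and 3.44 higher in M1. Il15ra, which presents interleukin-15 to lymphocytes (4.75 ± 0.14), and Il12rb1 (3.78 ± 0.14) were higher in M1, and the gp130 chain Il6st (-3.25 ± 0.21), the TGF-beta receptor Tgfbr1 (-2.81 ± 0.11) and Lifr (-2.26 ± 0.21) in M2. In the JAK and STAT pathway 9 of 19 genes were higher in M1 and 7 in M2. The feedback inhibitors parted: Socs3 belonged to M1, while Socs2 (-4.78 ± 0.13) and Cish (-2.06 ± 0.10) belonged to M2, and Stat2 and Stat3 were 2.55 ± 0.11 and 1.93 ± 0.07 higher in M1. For Socs2, 2 of 4 tested probe sets were called. Stat6, the factor of the interleukin-4 response, read 9.28, 9.50 and 9.23 in M1 and 9.27, 9.27 and 9.36 in M2, with a 95% interval of -0.11 to 0.18.

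The interleukin-4 and interleukin-13 marker list was higher in M2 for 31 of 43 genes (median -2.07), and 15 of the 43 were opposed. A group of 9 went the other way: Ch25h at 4.61, Vegfa at 2.70, Klf4 at 2.07, Tgm2, Il4ra, Slc7a2, Cd209d, Ccl22 and Cd209a. Klf4, a transcription factor, read 10.25, 10.53 and 10.60 in M1, 8.50, 8.37 and 8.29 in M2 and 6.82, 6.58 and 6.36 in M0. Ch25h, which makes 25-hydroxycholesterol, read 11.08, 9.94 and 10.83 in M1, 5.82, 6.12 and 6.09 in M2 and 4.50, 4.70 and 4.22 in M0. Both were called above M0 in M2 and stood higher still in M1 (differences of 2.07 ± 0.14 and 4.61 ± 0.24). Il4ra itself, the receptor chain, read 9.13, 9.07 and 9.07 in M1, 8.23, 8.30 and 8.25 in M2 and 7.74 in each M0 array, and was 0.83 ± 0.06 higher in M1. Rasgrp1, Cd163 and Ccl17 were not called.

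Of 47 transcription factors of the IRF, KLF, EGR, BATF and related families, 22 were higher in M1 and 17 in M2 (median 0.08). Batf2 and Irf7, factors of the interferon response, were 4.02 ± 0.15 and 3.96 ± 0.29 higher in M1. Id3, an inhibitor of helix-loop-helix factors, read 6.95, 5.82 and 6.56 in M1 and 10.53, 10.33 and 10.49 in M2 and was not called in M2 against M0 (-4.01 ± 0.24 between the states). Cebpa, a factor of myeloid differentiation, read 6.25, 6.91 and 6.36 in M1, 9.50, 9.38 and 9.15 in M0 and 10.46, 10.20 and 10.31 in M2, an opposed pattern with -3.81 ± 0.14. The clock-related repressor Bhlhe40 was opposed as well (-3.33 ± 0.18). Of the immediate early and ERK feedback genes, 18 of 31 were higher in M1, with the phosphatases Dusp1 and Dusp4 in opposite states at 3.33 ± 0.13 and -3.99 ± 0.24.

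Arginine is used by nitric oxide synthase in M1 and by arginase in M2, and the genes of both routes were read. Nos2 read 8.58, 8.57 and 8.53 in M1, 4.93, 4.93 and 4.68 in M2 and 4.91, 4.96 and 4.94 in M0. Only M1 departed from M0, with 3.72 ± 0.09 between the states (13.2-fold, adjusted p = 1.8e-13). Arg1 read 5.35, 8.76 and 5.30 in M1, 9.93, 10.66 and 10.53 in M2 and 3.86, 3.41 and 3.40 in M0. It was called above M0 in both states and was -3.90 ± 0.66 (14.9-fold higher in M2, adjusted p = 0.00011), or -5.05 ± 0.27 without M1 replicate 2, whose value stood more than 3 above the other M1 arrays. Gch1, which makes the cofactor of Nos2, was 2.12 ± 0.17 higher in M1, and Gatm, which uses arginine for creatine synthesis, and Srm, which makes spermidine, were -2.79 ± 0.14 and -2.22 ± 0.13. Of the 23 genes of the list 8 were higher in M1 and 14 in M2, or 8 and 8 with arrays centred on the median of the tested genes. Of 19 prostaglandin and leukotriene genes 5 were higher in M1 and 10 in M2 (median -0.58). The largest in M1 were Ptgs2, the prostaglandin E synthase Ptges (3.42 ± 0.21) and the phospholipase Pla2g4a (3.22 ± 0.17). The largest in M2 were Hpgd, which degrades prostaglandins (-3.98 ± 0.19), and the lysosomal phospholipase Pla2g15 (-2.66 ± 0.08), and synthetic enzymes were among the 10, such as the leukotriene C4 synthase Ltc4s at -1.66 and the thromboxane synthase Tbxas1 at -1.36.

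Central metabolism differed by pathway. Of 32 glycolysis and hypoxia genes 25 were higher in M1 and 4 in M2 (median 1.31), and 11 were opposed. Pfkfb3, which makes the activator of phosphofructokinase, read 10.86, 11.07 and 10.79 in M1, 7.97 on average in M0 and 6.61, 6.73 and 6.84 in M2, with 4.18 ± 0.11 between the states. The hexose transporter Slc2a6, the lactate exporter Slc16a3 and the mitophagy receptor Bnip3 were 3.31 ± 0.10, 2.99 ± 0.13 and 3.08 ± 0.12 higher. The 4 higher in M2 were Pfkfb4, Aldoc, Slc16a1 and Ldhb at -1.40, -0.97, -0.92 and -0.42. Of 45 genes of the TCA cycle and respiratory chain 4 were higher in M1 and 29 in M2 (median -0.34), or 12 and 19 (median -0.09) with arrays centred on the median of the tested genes. Acod1, which diverts aconitate to itaconate, read 13.93, 13.93 and 13.89 in M1 and 9.02, 9.13 and 9.14 in M2 (4.82 ± 0.15). The enzymes at isocitrate, Idh1 and Idh2, fell by 2.11 and 2.08 and fumarate hydratase Fh1 by 1.83. For Idh2 a second probe set was called in the opposite direction, so its direction is uncertain.

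Synthesis of cholesterol and fatty acids stood out among the lists higher in M2. Of 35 genes 33 were higher in M2 (median -1.64), with 29 called with arrays centred on the median of the tested genes, and 19 were opposed. Idi1, of the isoprenoid pathway, read 5.61, 5.32 and 5.53 in M1, 8.77, 8.63 and 8.38 in M0 and 9.87, 9.86 and 9.70 in M2. M1 lay below and M2 above every M0 array, with -4.33 ± 0.11 between the states (20.1-fold, adjusted p = 2.4e-13). Cyp51 (-3.59 ± 0.11), Sqle (-3.50 ± 0.16), Fdps (-3.10 ± 0.12) and the sterol carrier Stard4 (-3.08 ± 0.15) had the same order of groups. The malic enzyme Me1, which supplies NADPH, was the 1 gene higher in M1 (1.17), and Mvk was not called. Of 40 targets of LXR and PPAR and genes of fatty acid oxidation, 28 were higher in M2 and 5 in M1 (median -0.63). The receptor Pparg read 5.40, 5.00 and 5.14 in M1, 7.91, 7.93 and 8.12 in M0 and 8.66, 8.72 and 8.99 in M2 (-3.61 ± 0.11), whereas Nr1h3, which encodes LXR-alpha, was 1.66 ± 0.07 higher in M1. The other 4 higher in M1 were Mylip, Slc25a20, Acadl and Acaa1a.

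**Figure D4:**
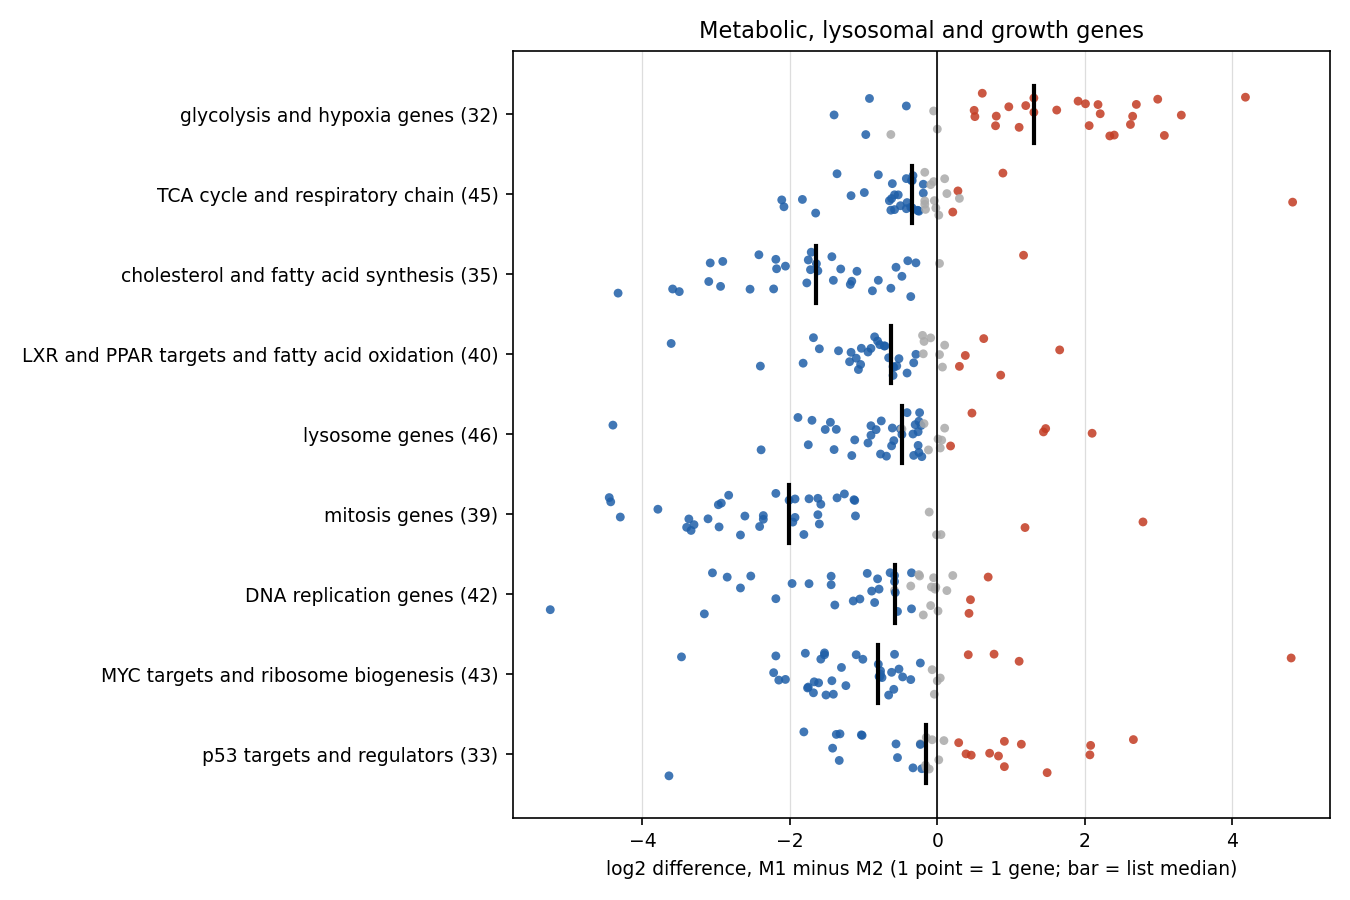
Log2 difference M1 minus M2 (x axis) of each tested gene in 9 lists of metabolic, lysosomal and growth genes, coloured red where called higher in M1, blue where called higher in M2 and grey where not called, with a bar at the list median and the number of genes after each name; the vertical spread of points is only for legibility. Medians run from 1.31 for glycolysis and hypoxia genes to -2.01 for mitosis genes, and single genes such as Acod1 at 4.82 and Ccnd2 at 4.80 stand apart from their lists.

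Lysosomal and iron genes held members of both directions. Of 46 lysosome genes 34 were higher in M2 and 5 in M1 (median -0.48), or 23 and 9 with arrays centred on the median of the tested genes. Atp6v0d2, a proton pump subunit, was -4.40 ± 0.10, Arsb -2.39 ± 0.28, Manba -1.89 ± 0.07 and Gusb -1.75 ± 0.07. The 5 higher in M1 were Ctsc (2.10 ± 0.12), Acp2, Ctsh, Gla and Npc2. Of 30 iron, NRF2 and superoxide genes 15 were higher in M1 and 9 in M2 (median 0.42). Tfrc, which imports iron, read 8.30, 8.56 and 8.10 in M1, 10.13, 10.88 and 10.48 in M0 and 11.58, 12.06 and 11.75 in M2. Hmox1, which releases iron from haem, read 12.11, 12.82 and 12.11 in M1, 9.82, 10.14 and 10.22 in M0 and 8.76, 8.77 and 8.80 in M2. These 2 were opposed in opposite directions (-3.47 ± 0.20 and 3.57 ± 0.17), while the exporter Slc40a1 was low in both states. Ceruloplasmin, Cp, was 4.59 ± 0.15 higher in M1 on all 7 of its probe sets, and mitochondrial superoxide dismutase Sod2 3.06 ± 0.07.

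Genes of cell division were lower in M1. Of 39 mitosis genes 34 were higher in M2 (median -2.01), each by at least 2-fold, and of 42 DNA replication genes 26 (median -0.58). Mki67, the proliferation marker, read 5.05, 5.31 and 5.14 in M1, 9.40, 9.94 and 9.51 in M2 and 8.38, 9.71 and 9.18 in M0. M2 overlapped M0 and M1 lay below both, with -4.45 ± 0.24 (21.8-fold, adjusted p = 7.5e-10). Ube2c, Ccnb2, Birc5 and Nusap1 were between -4.43 and -3.40, and Dut, Tk1, Mcm6 and Pola1 between -3.16 and -2.67, with M0 called above M1 in each. Mcm6 moved from -2.85 to -2.25 ± 0.28 without M1 replicate 2. The mitosis genes higher in M1 were Tpx2, a spindle assembly factor, at 9.54, 9.06 and 9.75 in M1 against 6.35, 6.93 and 6.70 in M2 (2.79 ± 0.28), and Plk4, a kinase of centriole duplication, at 1.19 ± 0.17. The replication genes higher in M1 were Pola2, Rfc3 and Pold3, at 0.43 to 0.69.

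MYC and p53, the factors whose inhibitor and activator the series used in M2 cells, were read through their genes and targets. Myc read 6.09, 5.61 and 5.88 in M1, 6.27, 6.90 and 6.72 in M0 and 7.50, 7.31 and 7.61 in M2. The 3 groups did not overlap, and the states differed by -1.61 ± 0.15 (3.06-fold, adjusted p = 2.9e-07). Of 43 MYC targets and ribosome biogenesis genes 35 were higher in M2 (median -0.80) and 16 were opposed, among them Tfrc, Srm, Wdr12 (-2.19 ± 0.08) and Nop58 (-2.15 ± 0.09). The 4 higher in M1 were Ccnd2, Ldha, Ccnd1 and Noc4l. Ccnd2, cyclin D2, read 10.07, 9.08 and 10.06 in M1 and 4.99, 4.90 and 4.93 in M2 (4.80 ± 0.24, all 6 probe sets).

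The targets of p53 did not move as a group. Of 33, 12 were higher in M1 and 13 in M2, with a median of -0.15 that turned to 0.10 with arrays centred on the median of the tested genes. Mdm2, the ubiquitin ligase that restrains p53 and is itself a p53 target, read 11.06, 11.46 and 11.29 in M1, 9.15, 9.10 and 9.31 in M2 and 9.42, 9.39 and 9.49 in M0. M1 alone departed from M0, with 2.08 ± 0.09 between the states (4.24-fold, adjusted p = 6.9e-11). Cdkn1a encodes p21, which arrests the cell cycle, and read 11.66, 11.71 and 11.60 in M1, 10.81, 10.67 and 10.76 in M2 and 9.44, 9.40 and 9.34 in M0. It was above M0 in both states and 0.91 ± 0.06 higher in M1. The death receptor Fas and Gadd45g were 2.66 ± 0.15 and 2.07 ± 0.17 higher in M1, and the stress-response gene Sesn1 (-3.64 ± 0.06) and Gadd45a (-1.81 ± 0.15) higher in M2.

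The other lists held members of both directions. Of 29 genes of plasminogen activation and matrix 9 were higher in M1 and 12 in M2, with the adhesive glycoprotein Thbs1 (3.65 ± 0.25), the membrane protease Mmp14 (2.78 ± 0.19) and Vcan (1.97 ± 0.20) against the collagenase Mmp8 (-2.49 ± 0.17) and urokinase Plau (-1.86 ± 0.22). Integrins and adhesion molecules split 12 to 12 of 29, with Itgb5 (-3.34 ± 0.07), the tetraspanin Cd9 (-3.11 ± 0.11) and Itga6 (-2.37 ± 0.12) higher in M2. Of 40 genes of the unfolded protein and ATF4 responses 13 were higher in M1, led by Psat1 of serine synthesis (3.72 ± 0.25), with Mthfd2 and Wars at 1.64 ± 0.14 and 1.61 ± 0.07, and 15 in M2, led by the chaperone Pdia4 (-2.19 ± 0.10) and followed by Atf5 (-1.59 ± 0.12). Of 17 clock genes 4 were higher in M1 and 7 in M2, the latter near the share of all genes, with Dbp at -2.34 ± 0.11, Rora, Tef and Nfil3 between -1.47 and -0.97. Among identity genes Adgre4 (-2.41 ± 0.21) and the lipid receptor Trem2 (-3.32 ± 0.07) were higher in M2, although Trem2 was not called (0.16 ± 0.10, adjusted p = 0.2) on its probe set of the plain kind, whose name carries no suffix for shared sequence.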

How the data were processed

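The table analysed is the submitters' own: log2 values summarised by RMA from one-colour Affymetrix arrays of total RNA, per the submitters' processing notes, which give no version. RMA corrects background, normalizes by quantiles and sums probes, so values are relative within the series and total RNA content is not seen. Probe sets were named through the platform annotation, and those assigned to several genes or none were left out. A gene was tested when, on 3 arrays or more, its probe set lay above the 40th percentile of all non-control probe sets of that array. Group means of all 5 groups and 15 arrays were fitted with limma 3.58.1, and M1 minus M2 was tested with eBayes and Benjamini-Hochberg adjustment at 0.05. The method was tested on simulated data, where it called 100% of genes changed 2-fold, 80% of those changed 1.5-fold and 32% of those changed 1.25-fold (50 genes each), with 8 false calls of 164. The simulation changed few genes and gave every group the same spread with independent noise. In these arrays 64.7% of the genes were called and M1 replicate 2 stood apart, so the simulated rates need not hold here.

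Genes were named by rule: the 20 largest called rises and falls, the leading genes of each class against M0, and the leading members of each list. Members and lists were chosen with earlier results of these data known. Other settings covered the filter, the choice of probe set, scaling, the samples and variance model of the fit, a replicate block and leaving out each array. Promoter sequences came from RefSeq; 1 motif searched in them is not reported here. Same-numbered M2 and M0 arrays deviated together (0.334, 0.424 and 0.232), and so did same-numbered M1 and M0 arrays (0.055, 0.149 and 0.263). This pairing is seen in the data and is not stated in the labels. The classes against M0 and the calls between M1 and M2 come from the fit without it. With the number as a block, M2 against M0 had 4646 calls in place of 4253, and M1 against M0 had 10190 in place of 9963. The number of arrays limits the precision.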

Additional observations from a re-analysis of the deposited data

How the results depend on the processing

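Of the 250 genes named, 14 lost and 8 gained a call under at least 1 setting, and 3 reversed when only plain probe sets were used: Idh2 at 0.41 (adjusted p = 0.005, limma), Trem2 at 0.16 (0.2) and Ighm at 0.06 (0.7); the cause was not tested. Calls higher in M1 and in M2 were 4725 and 4997 with no filter, 2857 and 4834 with the 60th percentile as filter, and 3195 and 4551 with the 6 arrays alone. With arrays centred on the median of the tested genes, a setting added after the data were seen, calls higher in M1 moved to 6896, and the classes M1 alone up and down to 4582 and 1853, shared up and down but unequal to 1319 and 647, and shared down with no call between states to 276. Repeated quantile normalization gave 639 genes shared up but unequal, and the 60th percentile gave 1456 in M1 alone up and 251 shared up with no call. The median over all list members was 0.0 with no filter, -0.17 with the 60th percentile, -0.02 with repeated quantile normalization and 0.16 with centring. Requiring 2-fold against M0 left 54 and 56 opposed, 687 and 1576 in M1 alone, 101 and 71 in M2 alone, 33 and 63 shared but unequal, and 8 and 25 shared with no call, since fewer genes then qualify. Leaving out each array in turn gave 3358 to 4018 genes higher in M1, 4714 to 5163 higher in M2 and 242 to 486 shared up with no call. In the 100 bases before the start, the STAT6 type was in 0.0% of the promoters of the largest rises, against 2.03% of all promoters. The interferon-stimulated response element was in 1 of 18 promoters of the largest rises (5.56%), against 0.983% of all promoters. The NF-kappa-B type was in 10% of the promoters of the largest falls, against 12.7% of all promoters and 16.2% of those of tested genes. Shares over all promoters were also lower than with 250 bases, since the window is shorter. Same-numbered M1 and M2 arrays deviated together at 0.148, 0.078 and 0.063, and each M1 array correlated best with its own number. If the numbers pair M1 with M0 and M2 with M0, they pair M1 with M2 as well. The main fit left this pairing out. With the replicate number as a block, 3996 genes were higher in M1 and 5121 in M2, no class count moved by over 1.5 times and, of the named genes, Hpgds alone changed its call (-0.22, adjusted p = 0.024, limma).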

Other observations

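M1 replicate 2 differed from both other M1 arrays in genes that no list was built for. Ada, adenosine deaminase, read 4.71, 8.58 and 4.61 in the 3 M1 arrays, with means of 5.71 in M2 and 6.44 in M0. Galc, a lysosomal galactosidase, read 4.34, 8.18 and 4.55, and Klrk1, the receptor NKG2D, 10.9, 7.54 and 10.86. For Ada and Galc the single array lay above the means of both other groups, and for Klrk1 it lay between the M1 fellows and the means of 4.04 in M2 and 4.25 in M0.

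Probe sets with no single gene name were tested apart: of 4381, 1106 were higher in M1 and 984 in M2 (47.7% called, against 64.7% of the genes), and at 2-fold or more 203 and 320. Among cell type markers, Xcr1 (2.26), known from cross-presenting dendritic cells, was higher in M1. Of 9 tested dendritic cell markers 4 were higher in M1 and 0 in M2. Kdr (1.66), a receptor of endothelial cells, was also higher in M1. Its list of stromal and endothelial markers held 8 tested genes, 2 higher in M1 and 1 in M2. Pecam1, of the same list, had means of 3.99 in M1, below the 40th percentile of its arrays, and 4.91 in M2. Siglecf (-2.49), an eosinophil and alveolar macrophage lectin, was higher in M2 and was the 1 eosinophil marker tested.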
